A study of Homo sapiens with 3 samples.

Results

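The transcripts described here encode the receptors of the insulin-like growth factor (IGF) system and the secreted IGF-binding proteins. The 10 genes are IGF1R, INSR, IGF2R and IGFBP1 to IGFBP7, found by symbol among the 60554 genes of a table of read counts. The set was chosen by family and by measured values of these same libraries, the low IGFBP5 counts with both shRNAs, so differences of the 10 genes from the control are descriptions with no test. RNA was sequenced from KYSE30, a human cancer cell line from squamous carcinoma of the esophagus, in 3 stable lines with 1 library each. The control line carried the pLKO.1-blast vector, called vector in the genotype label and a non-targeting scrambled shRNA in the protocol. The lines labelled shRNA 1 and shRNA 2 (genotype SNORD12B knockdown) carried different shRNAs against SNORD12B, a small nucleolar RNA of the box C/D class. All 3 lines had met lentivirus for 24 hours and 2 weeks of blasticidin at 5 ug/mL, and grew with 10% serum. No source used here says whether a line is a clone or a pool.

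IGF1 and IGF2 act through IGF1R, a receptor tyrosine kinase that can pair with the closely related insulin receptor INSR. IGF2R, also known as the cation-independent mannose 6-phosphate receptor, binds IGF2 without kinase signalling and carries it and lysosomal enzymes to lysosomes. The IGF-binding proteins are secreted, hold IGFs away from or near their receptors, and are released from them by proteases. IGFBP3 is well studied in squamous epithelium of the esophagus.

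Values given in threes follow the order control, label shRNA 1, label shRNA 2. The libraries held 15473922, 15146805 and 17336936 counts. SNORD12B itself, with 91 exonic bases, was counted 7, 15 and 1 times, so the library labelled shRNA 1 showed no lower count of its target. The ratio to the control was 2.165 (0.831 to 6.275) with the label shRNA 1, an interval that includes 1. With the label shRNA 2 it was 0.126 (0.0028 to 0.982). Counts this few do not measure whether the knockdown worked in either line. Every direction given for both shRNAs includes the library labelled shRNA 1. All 11 squamous epithelial markers were counted in each library, with summed levels of 8885 to 10928 counts per total count scaled to 1e6 (CPM), although the basal keratin gene KRT5 had 1 to 3 counts. Most of that sum came from the simple-epithelial keratins KRT8, KRT18 and KRT19. Of the 10 markers that passed the filter on low counts, 5 were below the control with both shRNA labels and 1 was above it with both. The shares over all genes that passed were 27.0% and 28.2%. The 5 include KRT8, nearly level at 4366, 4335 and 4340 CPM. KRT6A, a keratin with near-identical paralogs that can share its reads, stood at 174.7, 90.1 and 51.4 CPM (edgeR unadjusted p = 0.00595, adjusted p = 1), and KRT14, a basal keratin, at 19.01, 11.5 and 10.8 CPM. TP63, a transcription factor of basal cells, measured 156.6, 80.55 and 135 CPM, and DSP, a desmosome protein, 458, 316 and 488 CPM. Of 8 fibroblast markers, COL1A2, DCN, LUM, PDGFRA and THY1 had 0 counts in all 3 libraries, and the sum over the list was 16.01, 9.47 and 13.7 CPM, nearly all of it COL1A1. Endothelial markers (5 genes, KDR and TEK at 0) summed to 3.71, 0.921 and 5.81 CPM, with 17, 1 and 9 counts of VWF and 40, 13 and 91 of CDH5. Leukocyte markers (5 genes) summed to 1.95, 1.32 and 2.07 CPM, mostly CD68 (27, 17 and 32 counts), which shares 81.73% of its exonic bases with another gene on its strand. With 1 library a line there is no replicate error. Brackets after a CPM value or a ratio give 95% exact Poisson or conditional intervals, which cover counting error only.

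The pair of genes that stood at least 2-fold lower in both shRNA libraries, IGFBP5 and IGFBP2, lie next to each other on chromosome 2 and point towards each other, and IGFBP6 had the highest mean log-CPM difference above the control. The bases before the start sites of these 3 genes are shown so that the promoters of 2 low members and 1 high member can be set side by side. They are RefSeq sequences of GRCh38.p14, the 250 bases before each start site, read 5′ to 3′ along the gene. For each gene the start site nearest to the 5′ end of the gene model was taken, and any other start sites were not examined. Which start site these cells use was not measured. Capitals mark matches, on either strand, to the motifs searched: a TATA box (TATAAA), a GC box (GGGCGG), a FOXO element (GTAAACA), an E-box (CACGTG) and an AP-1 site (TGANTCA). The IGFBP5 window is chr2:216695550-216695799 on the minus strand, the IGFBP2 window chr2:216632578-216632827 on the plus strand and the IGFBP6 window chr12:53097417-53097666 on the plus strand.
IGFBP5: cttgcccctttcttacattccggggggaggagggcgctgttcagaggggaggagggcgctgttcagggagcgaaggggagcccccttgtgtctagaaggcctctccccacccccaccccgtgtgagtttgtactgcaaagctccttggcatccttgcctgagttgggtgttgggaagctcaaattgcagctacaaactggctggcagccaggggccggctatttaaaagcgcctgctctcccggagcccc
IGFBP2: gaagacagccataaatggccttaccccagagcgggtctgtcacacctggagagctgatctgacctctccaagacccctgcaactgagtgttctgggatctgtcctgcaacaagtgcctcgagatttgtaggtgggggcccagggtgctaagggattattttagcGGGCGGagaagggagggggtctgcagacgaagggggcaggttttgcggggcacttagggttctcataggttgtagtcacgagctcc
IGFBP6: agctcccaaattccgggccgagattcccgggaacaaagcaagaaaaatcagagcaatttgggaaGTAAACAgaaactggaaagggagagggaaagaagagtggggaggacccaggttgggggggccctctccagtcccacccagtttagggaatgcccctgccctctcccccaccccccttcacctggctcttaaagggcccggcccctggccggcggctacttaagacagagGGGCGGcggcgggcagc
The IGFBP5 window held 0 matches, the IGFBP2 window 1 GC box and the IGFBP6 window 1 GC box and 1 FOXO element. Of 35116 promoter windows of this length in the table, 42.6% held a GC box, 2.98% the FOXO element, 10.7% the TATA box, 6.34% the E-box and 6.57% the AP-1 site. The motifs do not overlap each other in these windows. A match is a run of letters and not a measured site. Only the strings given were searched, so variant forms of a motif are not marked. A count of 0 thus does not show that such an element is absent. The IGFBP6 start site taken from RefSeq lies 231 bases inside the gene model used for counting, and that of IGFBP5 lies 24 bases outside it.

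IGFBP5, a binding protein that also attaches to the extracellular matrix, was the member furthest below the control. The gene (ENSG00000115461.4) spans positions 216672105 to 216695525 of chromosome 2 on the minus strand in hg38. Its counts were 100, 7 and 23, which are levels of 6.51 CPM (5.30 to 7.92), 0.460 CPM (0.185 to 0.948) and 1.32 CPM (0.838 to 1.98). The control thus lay above both shRNA libraries, and the counting intervals of the 3 libraries overlapped only between the shRNA lines. The ratio to the control was 0.0707 (0.0277 to 0.151) with the label shRNA 1 and 0.203 (0.123 to 0.322) with the label shRNA 2. On the log-CPM scale the differences were -3.50 and -2.20, whose mean ranked 21st from the lowest among 17801 genes that passed the filter on low counts. In bulk RNA, fewer cells with the transcript and less of it per cell cannot be told apart. An unnamed RNA on the opposite strand covers 4.63% of the exonic bases of IGFBP5 and had 7, 0 and 1 counts.

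IGFBP2, which carries an integrin-binding motif and is often found in tumours, was also lower than the control in both shRNA libraries. The gene (ENSG00000115457.9, positions 216632828 to 216664436, plus strand) ends 7668 bases from the 3′ end of IGFBP5. Counts of 697, 176 and 371 gave 45.4 CPM (42.1 to 48.9), 11.6 CPM (9.93 to 13.4) and 21.3 CPM (19.2 to 23.6). As for IGFBP5, the control was highest and the library labelled shRNA 1 lowest. The ratio to the control was 0.255 (0.215 to 0.301) and 0.470 (0.413 to 0.534). The mean log-CPM difference, -1.52, ranked 180th from the lowest.

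IGFBP6, which prefers IGF2 over IGF1, stood above the control in both shRNA libraries. The gene (ENSG00000167779.7) spans positions 53097436 to 53102345 of chromosome 12 on the plus strand. With 1796, 2588 and 3469 counts it measured 116.9 CPM (111.6 to 122.5), 170.2 CPM (163.7 to 176.9) and 199 CPM (193 to 206). The 3 counting intervals did not overlap, and the control was lowest. The ratio to the control was 1.46 (1.37 to 1.55) and 1.71 (1.61 to 1.81). IGFBP4, another soluble binding protein and a substrate of pappalysin, lies on chromosome 17 (40443461 to 40457731, plus strand) and was counted 53, 79 and 85 times. Its ratio to the control was 1.51 (1.05 to 2.17) with the label shRNA 1 and 1.42 (0.994 to 2.03) with the label shRNA 2, so the second does not exclude 1 even for counting error.

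IGFBP3, the main carrier of IGFs in blood, was abundant in all 3 lines. From chromosome 7 (45912245 to 45921874, minus strand) came 2468, 1723 and 2613 counts, or 160.7 CPM (154.4 to 167.1), 113 CPM (108.0 to 118.8) and 150.2 CPM (144.5 to 156.1). The library labelled shRNA 1 lay further below, with a ratio of 0.705 (0.663 to 0.750) against 0.935 (0.885 to 0.988) for the other. IGFBP7, a related secreted protein that binds IGFs weakly, is on chromosome 4 (57030773 to 57110385, minus strand) and measured 20.7, 17.8 and 13.3 CPM. Here the order of the shRNA lines was the opposite, with ratios of 0.858 (0.727 to 1.01) and 0.644 (0.542 to 0.766). Exons of IGFBP7-AS1 and POLR2B lie opposite 18.86% of the exonic bases of IGFBP7, so its count is uncertain if strands were not separated; IGFBP7-AS1 had 45, 10 and 18 counts. IGFBP1, a binding protein made mainly by liver and decidua, had 0 counts in each library, which allows up to 0.195, 0.197 and 0.173 CPM (3 counts).

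**Figure D1:**
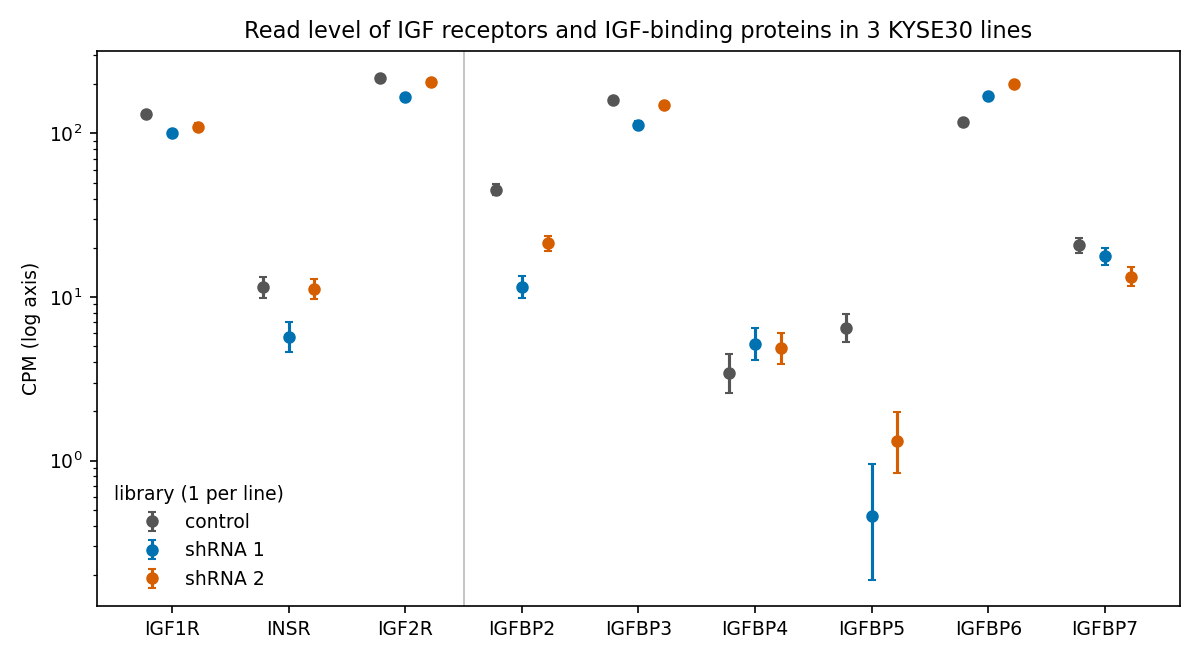
CPM (log axis) of the 9 members with counts, 1 point per library, in the control (grey) and the libraries labelled shRNA 1 (blue) and shRNA 2 (orange); bars are 95% exact Poisson intervals, which cover counting error only, and the grey line parts receptors from binding proteins. IGFBP5 goes from 6.51 CPM in the control to 0.460 and 1.32 CPM, while the IGFBP6 points lie at 116.9, 170.2 and 199 CPM.

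The receptors differed less from the control than IGFBP5 and IGFBP2 did. IGF1R (ENSG00000140443.13, chromosome 15, 98648971 to 98964530) had 2021, 1521 and 1916 counts, with CPM intervals of 125.9 to 137.4, 95.05 to 105.2 and 105.3 to 115.2. Both shRNA libraries lay below the control, with ratios of 0.760 (0.711 to 0.813) and 0.837 (0.786 to 0.892). IGF2R (chromosome 6, 159969099 to 160113507) stood at 217, 168 and 205 CPM, with ratios of 0.774 (0.735 to 0.815) and 0.945 (0.901 to 0.991). INSR (chromosome 19, 7112255 to 7294034) had 176, 87 and 195 counts, or 11.5 CPM (9.83 to 13.3), 5.72 CPM (4.58 to 7.06) and 11.2 CPM (9.69 to 12.9). The library labelled shRNA 1 was thus low in INSR, with a ratio to the control of 0.499 (0.382 to 0.649), and the library labelled shRNA 2 was not set apart from the control by its counts (0.979, interval 0.794 to 1.21). Of 10 squamous epithelial markers that passed the filter on low counts, 9 were below the control in the library labelled shRNA 1 (median -0.51). In the other library 5 were (median 0.03), beside 8638 and 8950 of all 17801 genes. The 9 include KRT8 at -0.01, nearly level with the control. The part of the markers in the receptor levels was not tested.

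Folds are counted here on the log-CPM scale with a prior count of 2. Of the 9 members that passed the filter, 2 (IGFBP2 and IGFBP5) were at least 2-fold lower in both shRNA libraries, a size reached by 1.19% of all 17801 genes, and 0 were at least 2-fold higher in both (0.977% of all genes). Below the control in both were 7 members (27.0% of all genes) and above it in both were 2, IGFBP4 and IGFBP6 (28.2% of all genes). Taken singly, the library labelled shRNA 1 had 2 members at least 2-fold lower (5.58% of all genes) and 0 at least 2-fold higher (3.74%), and that labelled shRNA 2 had 2 lower (3.46%) and 0 higher (2.98%). Both sets of ratios share the control library, and the members were chosen with this contrast in view, so nothing is read from these counts. The median log-CPM difference of the 9 was -0.39 with the label shRNA 1 and -0.10 with the label shRNA 2, beside 0.01 and -0.00 over all genes that passed. INSR in the library labelled shRNA 1 sits at the 2-fold line, and its side depends on the scale: -0.99 here, -1.015 with upper quartile scaling, and 0.499 as a plain ratio of CPM. By that plain ratio 3 members, INSR included, were at least 2-fold lower in that library.

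**Figure D2:**
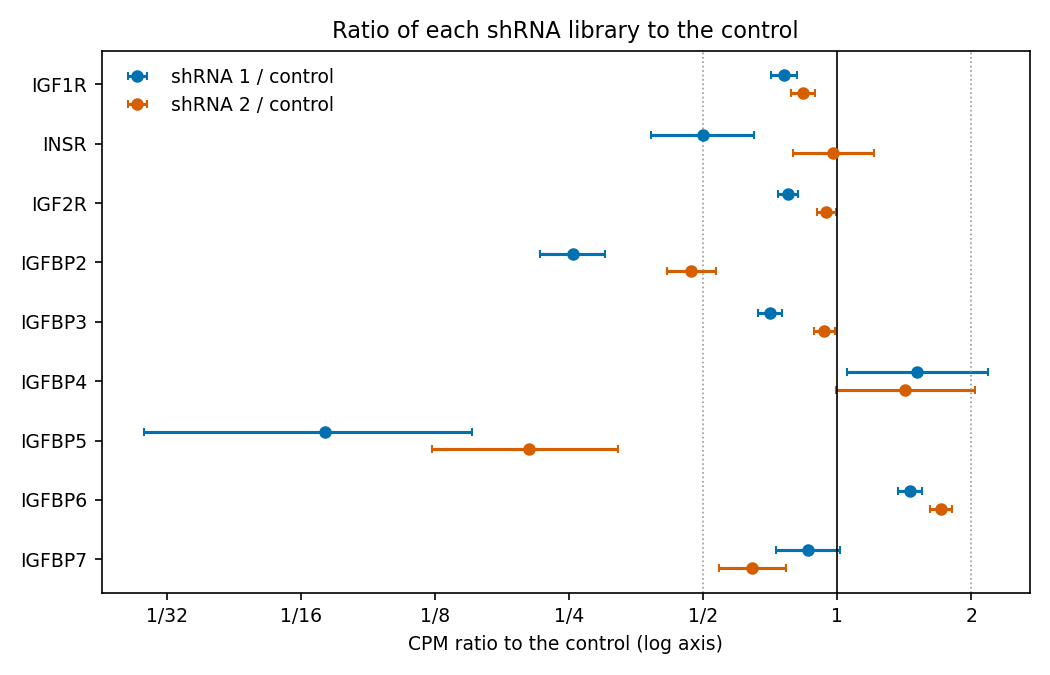
Ratio of CPM in each shRNA library to the control (log axis) for 9 members, with 95% exact conditional intervals of the counts; the solid line marks equal levels and dotted lines mark 2-fold. IGFBP5 (0.0707 and 0.203) and IGFBP2 (0.255 and 0.470) lie left of the 2-fold line in both libraries, and IGFBP4 and IGFBP6 lie right of the solid line.

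The shRNA lines also differed from each other, a comparison that does not use the control. IGFBP5 alone of 9 members was at least 2-fold apart, beside 12.2% of all genes (6.61% lower and 5.54% higher with the label shRNA 1), with a ratio of the library labelled shRNA 1 to that labelled shRNA 2 of 0.348 (0.126 to 0.838). With the label shRNA 1, 7 of the 9 stood lower than with the label shRNA 2, beside 49.9% of all genes. The ratio was 0.543 (0.451 to 0.651) for IGFBP2, 0.510 (0.392 to 0.660) for INSR, 0.754 (0.709 to 0.802) for IGFBP3, 0.819 (0.778 to 0.862) for IGF2R, 0.853 (0.811 to 0.898) for IGFBP6 and 0.908 (0.848 to 0.972) for IGF1R. IGFBP7 was higher with the label shRNA 1, at 1.33 (1.11 to 1.59). For IGFBP4 the ratio was 1.06 (0.773 to 1.46), which counting error alone could give. With 1 library a line, none of these differences has a test across cultures.

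Compared per length, in transcripts per 1e6 transcripts (TPM) over the exonic length in the table, IGFBP6 was the most abundant member in every library, followed by IGFBP3 and IGF2R. That length joins all annotated exons of a gene, so TPM is too low where the cells make a shorter transcript. It is 4767 bases for IGFBP2, 4571 for IGFBP3 and 1279 for IGFBP6. Transcripts in use were not measured, so the order of members and their closeness in TPM depend on these lengths. In the control the levels were 271 TPM for IGFBP6, 104 TPM for IGFBP3 and 43.1 TPM for IGF2R. Next came IGFBP7 at 31.8 TPM (28.4 to 35.5), IGF1R at 28.9 TPM (27.6 to 30.1) and IGFBP2 at 28.2 TPM (26.2 to 30.4), which do not differ beyond counting error. IGFBP4 at 4.65 TPM, INSR at 3.25 TPM (2.79 to 3.77) and IGFBP5 at 2.99 TPM (2.44 to 3.64) were low, the last pair with overlapping intervals. In the shRNA libraries IGFBP2 left the group around IGF1R. With the label shRNA 1 it stood at 7.50 TPM (6.43 to 8.69), level with IGFBP4 at 7.29 TPM (5.77 to 9.09), and with the label shRNA 2 at 13.65 TPM (12.3 to 15.1). IGFBP5 was the lowest member with counts in all 3 libraries, at 0.221 and 0.626 TPM with the shRNAs.

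The summed level of the binding proteins was 443, 531 and 618 TPM, and IGFBP6 made up most of each sum. It held 61.2%, 77.4% and 76.96% of the summed TPM. That of IGFBP3 was 23.5%, 14.4% and 16.2%, of IGFBP2 6.37%, 1.41% and 2.21%, and of IGFBP5 0.677%, 0.0416% and 0.101%. As shares of the reads of the family, IGFBP6 held 33.1% (Wilson 95% interval 31.8 to 34.3), 53.4% (52.0 to 54.8) and 51.07% (49.9 to 52.3), counting error only. The sum itself depends on length. The log2 difference from the control was 0.26 and 0.48 in TPM for the labels shRNA 1 and shRNA 2, but -0.15 and 0.14 in CPM. In CPM the short IGFBP6 gene model weighs less.

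**Figure D3:**
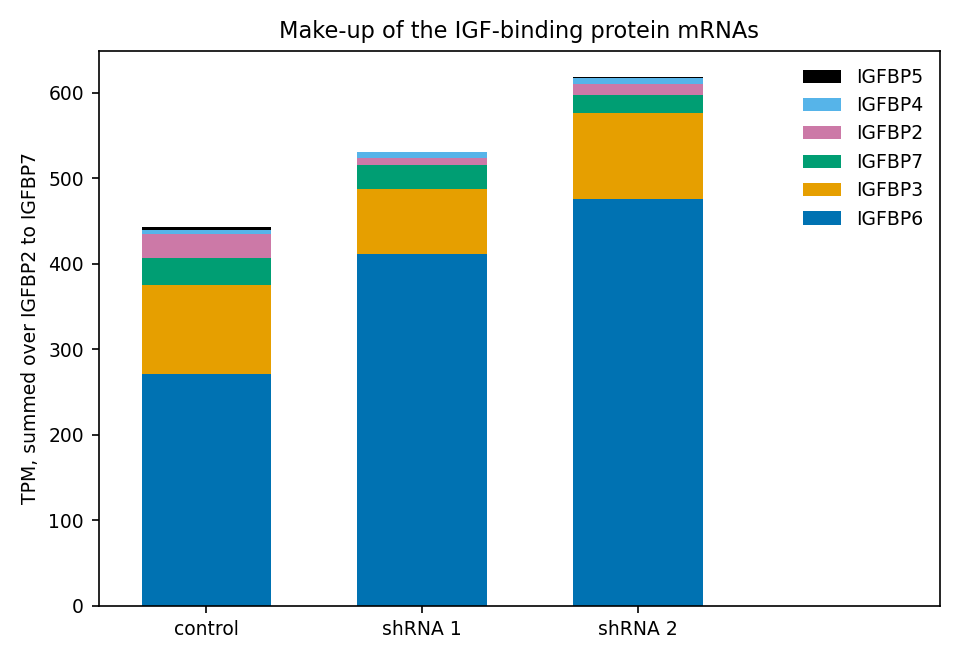
Stacked bars of TPM for the 6 binding proteins with counts, 1 bar per library, so that bar height is the summed level. The sums are 443, 531 and 618 TPM, and the blue IGFBP6 part is the largest in each bar while the pink IGFBP2 part is thinner with both shRNAs.

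The balance of the receptors per length was 8.88 (7.61 to 10.4), 13.5 (10.9 to 16.99) and 7.60 (6.56 to 8.85) IGF1R to 1 INSR. The library labelled shRNA 1 thus had the highest ratio, its interval lying above those of the other libraries, whose intervals overlapped. IGF2R exceeded IGF1R per length in every library, by 1.495-fold (1.41 to 1.58), 1.52-fold (1.43 to 1.62) and 1.69-fold (1.596 to 1.78).

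Genes with the pattern nearest to IGFBP5 over the pair of log-CPM differences, among genes with a symbol and at least 5 CPM in the control, were C1orf21, CNTN1, H19, KRT23 and FGFR2. KRT23, a keratin gene, had 100, 8 and 27 counts, close to the 100, 7 and 23 of IGFBP5. CNTN1, a neural cell adhesion molecule, stood at 53.3, 4.603 and 12.99 CPM, and C1orf21 at 24.7, 2.17 and 5.06 CPM. FGFR2, which encodes an FGF receptor tyrosine kinase, measured 10.35, 1.05 and 1.84 CPM. The distances from IGFBP5 ran from 0.09 to 0.41 log2 units. The likeness rests on 2 differences that share a control.

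The other genes of the IGF pathway were read from lists of related genes, of which 67 of 91 passed the filter. Across all genes edgeR's quasi-likelihood test of both shRNA lines against the control called 0% higher and 0% lower at an adjusted p under 0.05, and so 0 of these 67 in either direction. At an unadjusted p under 0.05 the same edgeR test had 0 of the 67 higher and 5 lower, namely CCN2, ADAM28, H19, SESN3 and NR4A1, beside 0.410% and 0.921% of all genes. DESeq2 and edgeR's likelihood ratio test each called H19 and SESN3 lower, the edgeR test with no filter called those and CCN2, and limma-voom called 0. The quasi-likelihood test has 1 residual degree of freedom, from the spread between the shRNA lines. To this it adds 8.35 prior degrees of freedom from the spread shared over all genes. Its p-values thus rest mostly on that shared spread, less on the gene's own, and do not measure spread between cultures. H19 (edgeR adjusted p = 0.499) and SESN3 were already known to be low in these libraries when the lists were written. All the lists were chosen with earlier results of these data known, so nothing is read from 5 of 67 beside the share of all genes.

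Of the 3 ligand genes IGF2 passed the filter, and of INSRR, IGFBPL1 and IGFALS, relatives of the receptors and binding proteins, 0 did. It had 208, 326 and 326 counts, or 13.5, 21.4 and 18.7 CPM, higher than the control in both shRNA libraries, with an adjusted p = 1 in edgeR's test. Of its exonic bases 21.9% are shared on the same strand with other gene models, and reads there may not be assigned. These are the INS-IGF2 read-through model, which had 0 counts, and an unnamed gene (ENSG00000240801). IGF1, with 82.85% of its exonic bases opposite another gene, had 2, 1 and 2 counts and INS had 0 in each. H19, the imprinted non-coding RNA beside IGF2, measured 330, 24.8 and 73.99 CPM. Per length, H19 exceeded IGF2 by 54.0-fold (46.99 to 62.3) in the control, 2.56-fold (2.20 to 2.98) with the label shRNA 1 and 8.75-fold (7.74 to 9.91) with the label shRNA 2. Gene models on the opposite strand overlap 9.06% of the exonic bases of H19. AIRN, KCNQ1OT1, SLC22A2 and SLC22A3, the other imprinted neighbours listed, had at most 1 count, and so they did not pass.

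Adaptors and kinases next to the receptors held 0 genes at least 2-fold lower or higher in both shRNA libraries, beside 1.19% and 0.977% of all genes. Of 27 genes, 23 passed the filter. Of these, 12 lay under the control with each shRNA and 6 over it with each, beside 27.0% and 28.2% of all genes. The medians were -0.08 and -0.08. IRS1, the docking protein first phosphorylated by IGF1R, stood at 41.3, 40.4 and 39.15 CPM, and IRS2 at 66.7, 50.2 and 57.9 CPM. The largest mean differences at 1 CPM or more were those of SH2B2 (3.39, 1.78 and 2.47 CPM), DOK1 (6.58, 6.38 and 2.93 CPM), SOCS1 (2.93, 4.27 and 3.79 CPM) and PIK3CA (57.6, 72.1 and 82.4 CPM). PIK3CA, a catalytic subunit of PI 3-kinase, is overlapped on 36.16% of its exonic bases by the opposite strand.

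Genes that act on the binding proteins outside the cell were mixed. Of 12 proteases and protease inhibitors, 6 passed, 3 of them below and 3 above the control in both libraries. Over all genes 27.0% were below in both and 28.2% above. ADAM28, a metalloprotease that cleaves IGFBP3, had 31, 5 and 7 counts, while ADAM12, which cleaves IGFBP3 and IGFBP5, stood at 4.82, 10.1 and 5.46 CPM. C1R, which shares 11.85% of its exonic bases with another gene, had 16, 4 and 12 counts and HTRA1, a serine protease, 35, 45 and 47. PAPPA, the pappalysin that cleaves IGFBP4 and IGFBP5, had 3, 6 and 4 counts, with 21.17% of its exonic bases opposite another gene. Among 7 tested secreted proteins with an IGFBP-like domain, CCN2 (connective tissue growth factor) stood at 148.9, 68.65 and 21.5 CPM, CCN1 at 497, 556 and 220.5 CPM, KAZALD1 at 9.70, 6.84 and 11.96 CPM, and CCN5 had 25, 7 and 32 counts. Of 9 partners that bind IGFBPs, 8 passed, with 3 below the control in both and 1 above, beside the same 27.0% and 28.2% of all genes. NR4A1, a nuclear receptor that binds IGFBP3, stood at 16.99, 5.52 and 5.17 CPM. FN1 (fibronectin) stood at 62.8, 29.98 and 55.8 CPM, LRP1, a cell-surface receptor of IGFBP3, at 109.6, 62.5 and 134 CPM, and RXRA at 289.7, 179 and 336 CPM, each lowest with the label shRNA 1.

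Partners of IGF2R in lysosomal sorting had medians near those of all genes. All 7 genes of the mannose 6-phosphate pathway passed the filter, with medians of 0.18 and -0.00. In both libraries 2 were below and 3 above the control, beside 27.0% and 28.2% of all genes. GGA2, an adaptor at the Golgi, stood at 102.8, 97.4 and 60.9 CPM and GNPTAB, which makes the mannose 6-phosphate tag, at 50.3, 59.5 and 64.85 CPM. GGA3 stood at 54.0, 71.6 and 54.6 CPM and NAGPA at 11.85, 14.5 and 11.8 CPM. The IGF2 mRNA-binding proteins, which share only part of their name with the IGFBPs, were all expressed, with IGF2BP2 at 301, 225 and 243 CPM, IGF2BP3 at 128, 109 and 139 CPM and IGF2BP1 at 86.1, 93.8 and 80.9 CPM.

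FOXO transcription factors, which insulin and IGF signalling keeps out of the nucleus, and their targets had unlike medians in the shRNA libraries. In the library labelled shRNA 1 all 11 that passed were below the control, and in the other 5 of 11 were, beside 8638 and 8950 of all 17801 genes, with medians of -0.87 and 0.11. FOXO1 stood at 33.0, 17.95 and 27.5 CPM, FOXO4 at 14.65, 6.25 and 16.9 CPM and BCL6 at 36.4, 17.2 and 33.2 CPM. SESN3, a sestrin, was low with both shRNAs, with 193, 5 and 11 counts and an edgeR adjusted p = 0.121. The difference between the lines has no test here, with 1 library each.

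**Figure D4:**
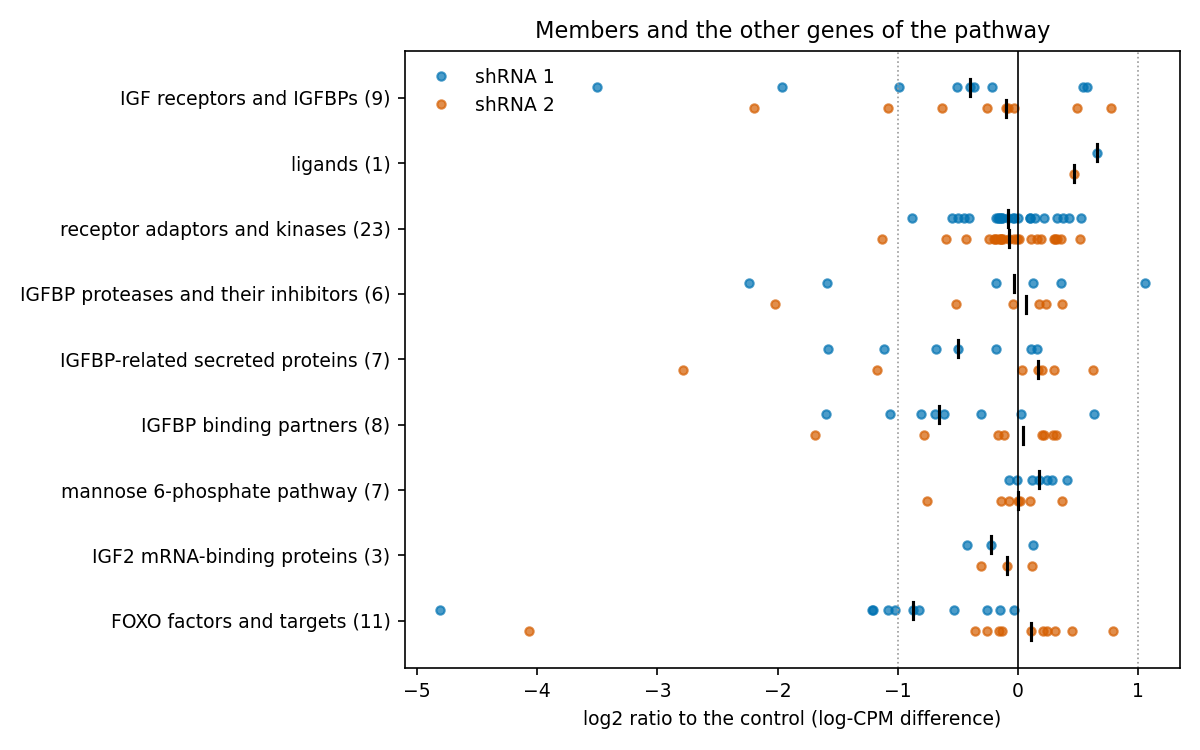
Log-CPM difference from the control of each gene that passed the filter in the lists drawn (number of genes in brackets), for the libraries labelled shRNA 1 (blue) and shRNA 2 (orange). Black ticks are medians and dotted lines mark 2-fold. The imprinted neighbours, H19 among them, and the cell type markers are not drawn. Adaptors and the mannose 6-phosphate pathway have medians near 0, though DOK1 lies at -1.13 and GGA2 at -0.75 with the label shRNA 2. IGFBP5 (-3.50 and -2.20) is the lowest point among the receptors and IGFBPs, and the FOXO list has medians of -0.87 and 0.11.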

How the data were processed

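RNA of 3 KYSE30 lines was measured. The authors deposited 1 table of raw counts per gene, made with featureCounts 1.6.4 on hg38 with the strand option 1, per the file headers. TopHat2, HTSeq and hg19 appear in the submitters' processing notes, which differs. No source used here names the kit, so opposite-strand overlaps are stated. All 52179 identifiers shared with GENCODE 29 in the same version have its coordinates.

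Genes were named by identifier (56558 of 60554 matched). The 17801 genes passing filterByExpr were scaled by TMM and tested in R 4.3.3 with edgeR 4.0.16 (quasi-likelihood F test, two-sided, Benjamini-Hochberg adjustment at 0.05), with DESeq2 1.42.0 and limma 3.58.1 as alternatives. The test was checked on data simulated with the dispersion of these libraries, and only for the sign of large changes. That check set no condition on how many differences were called. CPM uses TMM-scaled totals. Log-CPM differences use a prior count of 2. TPM uses the exonic length in the deposited table, which joins all exons of a gene. Members and the 14 other lists were chosen with earlier results of these data known. Named are all members, up to 4 genes a list by mean log2 difference at 1 CPM or more, and the 5 genes nearest to IGFBP5; IRS1, IRS2, IGF1, INS, PAPPA, KRT5, KRT8, KRT18, KRT19 and the genes around IGFBP2 were added after their values were seen. RefSeq promoters (GRCh38.p14) were found for 8 of the 10 members.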

Additional observations from a re-analysis of the deposited data

How the results depend on the processing

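The members' ratios were recomputed with other scalings (RLE, upper quartile, library totals) and prior counts of 0.5 and 5. In these settings, 0 of 18 ratios changed sign and all 90 recomputed values stayed within their counting intervals. IGFBP2 and IGFBP5 remained the 2 members at least 2-fold lower with both shRNAs under these settings, and 0 were higher. A 1.5-fold limit, or leaving out either shRNA line (2 and 2), only loosens the condition, so neither gene could drop out. Those settings added no other member, lower or higher. The set was chosen with these values in view, so the counts describe the settings and lend no support. Calls over all genes moved from 0 in edgeR's quasi-likelihood test to 15 with DESeq2, 38 with the likelihood ratio test, 41 with no filter, and 1 each with limma-voom and upper quartile scaling. Among the 67 tested pathway genes they moved from 0 to 2 with DESeq2, 2 with the likelihood ratio test and 3 with no filter. RLE scaling and a minimum of 5 CPM left both counts at 0. In CPM in place of TPM, the summed binding proteins lay at -0.15 and 0.14 (log2) in place of 0.26 and 0.48, as length then carries no weight. Without length, IGF1R to INSR was 11.5, 17.5 and 9.83. Leaving out a shRNA line leaves no residual degree of freedom, so the test was not run there. No paired analysis was possible, since each line has 1 library and the labels give no pairing. IGFBP5 rests on 7 counts in the library labelled shRNA 1, and IGFBP1 had 0 in each library.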

Other observations

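IGFBP2 and IGFBP5 share a stretch of chromosome 2, with other expressed genes on the IGFBP2 side. Within 500 kb on either side, 9 other genes with an entry in the name table passed the filter, a window chosen after the values were seen. All 9 lie on the IGFBP2 side, and the 8 genes with such an entry beyond IGFBP5 had 0 counts in every library. The unnamed RNA that overlaps IGFBP5 on the opposite strand has no entry and was left out. It runs beyond IGFBP5 (216694464 to 216994079) and had 7, 0 and 1 counts. Of the 9 genes, 0 were at least 2-fold lower in both shRNA libraries, 3 lay under the control with each shRNA and 2 over it with each. Over all genes that passed, these shares were 1.19%, 27.0% and 28.2%. An unnamed gene (ENSG00000279348) came nearest to the pair, at 2.54, 1.38 and 1.15 CPM in the order control, label shRNA 1, label shRNA 2 (log2 differences of -0.82 and -1.06), followed by LINC01963 at -0.28 and -0.52. RPL37A, a ribosomal protein gene, stood at 438, 385 and 408 CPM. SMARCAL1, a DNA-annealing helicase, stood at 21.9, 19.1 and 24.1 CPM, and XRCC5, a DNA end-binding protein, at 260.5, 283 and 197 CPM. MARCHF4, a membrane ubiquitin ligase, was higher in the library labelled shRNA 1, at 15.9 CPM against 6.71 CPM in the control and 7.47 CPM in the library labelled shRNA 2. IGFBP1 and IGFBP3 are also neighbours, 18576 bases apart on chromosome 7, with 0 counts of the first in every library and 1723 to 2613 counts of the second.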
